A study of Mus musculus with 4 samples.

Results

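Membrane adenylyl cyclases make cyclic AMP, and the genes Adcy1 to Adcy9 encode the 9 mouse isoforms. Members were taken by name, from the symbol in each amplicon name. All 9 were among the 23930 amplicons of the table, and 8 of them passed the filter of at least 1 RPM (reads scaled to the same total in every library) in at least 2 libraries, as did 11638 amplicons in all.

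The study measured messenger RNA in primary progenitor cells from subcutaneous tissue of C57BL/6 mice. Cells of both groups carried a floxed Gnas gene and spent 7 days in osteogenic medium after adenoviral infection. The control group (genotype wild type) received Ad-GFP, a virus carrying green fluorescent protein, and the mutant group (genotype Gnas-/-) received Ad-Cre, which carries Cre recombinase. There were 2 libraries in each group, called control 1, control 2, mutant 1 and mutant 2. Whether the 2 libraries of a group stem from different animals or dishes is not stated. The p-values therefore reflect only the variation among these 4 libraries, and part of it may be technical. The controls differed in sex-linked RNA and in macrophage markers (values below), so the spread between them includes that difference. The sources used here give no age or sex of the mice and no share of infected cells. The effect of the virus cannot be told apart from that of the lost gene. Gnas itself was not analysed here, so its deletion was not checked.

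Adenylyl cyclases sit in the cell membrane and turn ATP into cyclic AMP, which activates protein kinase A. The stimulatory G protein alpha subunit, the product of Gnas, activates every membrane isoform, so these enzymes stand directly below the deleted gene. The isoforms differ in what else acts on them. Adcy1, Adcy3 and Adcy8 respond to calcium and calmodulin, Adcy2, Adcy4 and Adcy7 are enhanced by G protein beta-gamma subunits, and Adcy5 and Adcy6 are inhibited by calcium and by inhibitory G proteins. Adcy9 is a widely expressed isoform that responds poorly to forskolin, the plant compound used to activate the others.

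In these cells no cyclase gene passed the test between mutant and control libraries. The isoforms with the widest gaps were Adcy1, which stood higher in both mutants than in both controls, and Adcy7, which stood lower in both. The Adcy5 amplicon had no read at all in control 2, and its comparison turned on which control it was set against. Adcy3, Adcy6 and Adcy7 together gave most of the cyclase reads in every library, and Adcy8 was at or near 0 throughout.

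The libraries held 13483518 to 18455811 reads, recovered from the step between low RPM values. Control libraries differed from each other more than mutant libraries did. On the log2(RPM + 1) scale 4.36% of tested genes were over 4-fold apart between the controls, against 0.0945% between the mutants. Of the 8 tested cyclases, Adcy1 and Adcy5 were over 4-fold apart between the controls, and none was between the mutants. Markers of the labelled cell type were present: 10 or 11 of 11 measured stromal markers had reads in each library, led by Col1a1 (5332 to 21009 RPM) and Col1a2 (3184 to 7512 RPM). Some of these levels were very low. Cd34 had 0.054 RPM in control 1, and the progenitor marker Dpp4 stayed at or below 1.19 RPM. Control 2 stood apart in the summed markers of some other cell types. The summed level of 15 macrophage markers was 974 RPM there, compared with 50.6 for control 1, 33.7 for mutant 1 and 20.5 for mutant 2. That of 8 endothelial markers was 89.7 RPM against 11.8, 19.2 and 38.0. Most of the endothelial sum in control 2 came from Emcn, Pecam1 and Cdh5 (31.3, 24.5 and 23.7 RPM). Other endothelial markers were not highest there. Kdr was lowest in control 2 (0.89 RPM, against 2.49, 1.26 and 2.56), and Tek had 4.38 RPM there and 12.2 in mutant 2. Of the 8, 6 had a read in control 2 and 7 in control 1. Sex-linked genes, looked at after the values were seen, also set control 2 apart. Xist, the RNA of the inactive X chromosome in female cells, had 165 RPM in control 1, 395 in mutant 1, 419 in mutant 2 and 0 reads in control 2. The summed level of 4 Y-linked genes (Ddx3y, Eif2s3y, Kdm5d and Uty) was 125 and 212 RPM for the controls, and 52.1 and 35.4 for the mutants, so 3 libraries held both kinds of RNA and control 2 held Y-linked RNA alone. Without control 2 the groups still differed, with Xist higher and the Y-linked sum lower in both mutants than in control 1. Leaving out control 2 therefore does not remove this difference in sex-linked RNA. The part of sex in the cyclase values was not tested and cannot be told apart from that of the lost gene. Values without control 2 are given beside those over all libraries. In bulk RNA, fewer cells of a type and less RNA per cell cannot be told apart.

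The sequences just before the transcription starts of Adcy1 and Adcy7, the isoforms with the widest gaps, are shown because cyclic AMP acts on genes through a short element, the CRE, bound by the factor CREB. Each run is the 250 bases before a RefSeq start (build GRCm38.p6), 5′ to 3′ on the gene's own strand. Capitals mark the CRE half-site (TGACG or CGTCA) for Adcy7. The Adcy1 window held neither the CRE nor its half-site, and capitals there mark GC boxes (GGGCGG or CCGCCC).

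Adcy1, chr11:7063183-7063432, plus strand: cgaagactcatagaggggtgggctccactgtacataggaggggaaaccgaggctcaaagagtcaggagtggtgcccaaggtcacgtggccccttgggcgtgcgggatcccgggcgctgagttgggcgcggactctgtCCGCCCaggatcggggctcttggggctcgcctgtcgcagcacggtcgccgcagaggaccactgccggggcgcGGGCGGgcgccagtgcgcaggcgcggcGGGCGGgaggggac
Adcy7, chr8:88282742-88282991, plus strand, the first of its 3 listed starts: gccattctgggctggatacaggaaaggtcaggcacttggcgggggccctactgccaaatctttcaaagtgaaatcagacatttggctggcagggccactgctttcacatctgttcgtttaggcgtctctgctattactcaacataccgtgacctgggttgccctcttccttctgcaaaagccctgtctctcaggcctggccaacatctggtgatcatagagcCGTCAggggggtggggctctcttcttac

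RefSeq windows were listed for 7 of the 9 members, with 10 windows in all because Adcy3 and Adcy7 have several starts. The full CRE (TGACGTCA, which reads the same on both strands) was in 0 of the 10 windows and in 1.55% of 32851 windows of all genes. The half-site, which the full element also contains, was in 2 of the 10, at -28 in Adcy7 and at -24 in Adcy9 (bases from the start), and in 17.8% of all windows. Only the Adcy7 window shown held it, and the other windows of that gene did not. That window lies inside the gene as annotated by GENCODE, whose lower coordinate is 88272403. The GLI motif of Hedgehog signalling (GACCACCCA or TGGGTGGTC) was in 0 of the 10 and in 0.225% of all. GC boxes were in 6 of the 10, with 3 in Adcy1, and in 32.7% of all. The Adcy1 window was 71.2% G and C, and the median over all windows was 52.4%. These are matches of letters in a short window.

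The family was measured as a whole first. The summed level over the 9 amplicons came to 261 RPM for control 1, 270 for control 2, 208 for mutant 1 and 222 for mutant 2, with means of 266 ± 6.13 and 215 ± 9.75 RPM (SD, n = 2 in each group, as for every mean given). Both mutants lay below both controls in this sum. Without Adcy7 the sums were 177, 129, 148 and 174 RPM in the same order, and the groups overlapped.

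Reads per amplicon depend on how well each primer pair works, so the order of isoforms is one of amplicon reads and not of molecules. Adcy7 had the highest level in both controls and in mutant 1. In mutant 2 Adcy6 (54.5 RPM) and Adcy3 (54.4 RPM) stood just above it (48.0 RPM). Adcy3, Adcy6 and Adcy7 held 72.9% and 91.1% of the cyclase reads in the controls and 72.4% and 70.8% in the mutants. Adcy1 was at rank 8 in control 1, rank 7 in control 2 and rank 4 in both mutants. Its share was 1.89% and 0.0823% in the controls and 12.7% and 9.09% in the mutants. Adcy6 held 13.4% and 16.3% in the controls and 24.8% and 24.6% in the mutants. Neighbours in the order, such as Adcy4 (13.5 ± 2.38 RPM) and Adcy9 (15.4 ± 10.5 RPM) in the controls, did not differ beyond their spread.

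**Figure D1:**
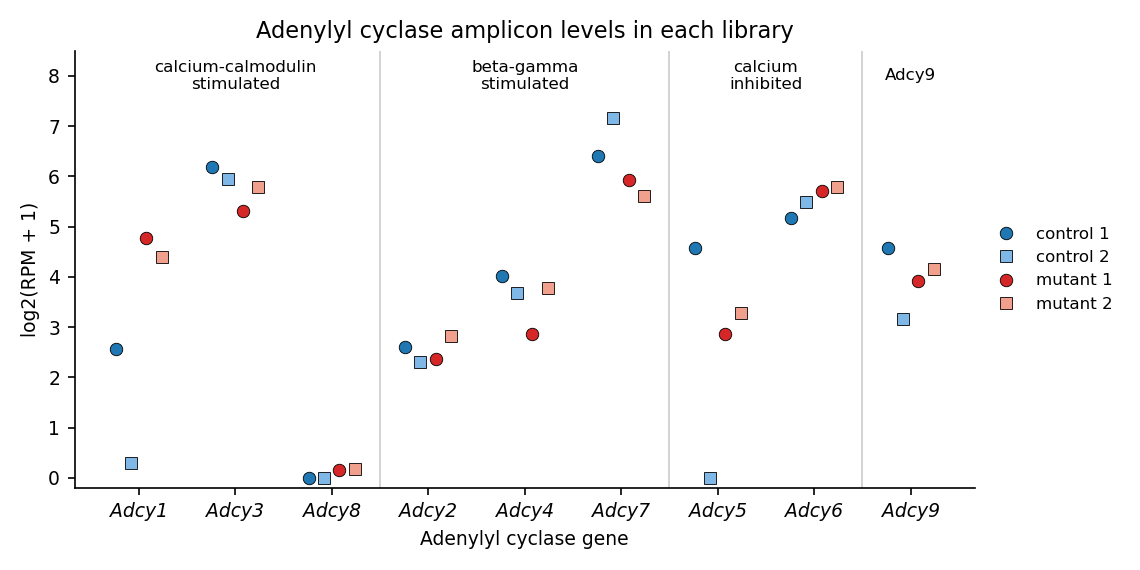
Level of each adenylyl cyclase amplicon as log2(RPM + 1) on the y axis, by gene on the x axis, with 1 point per library (blue, controls; red, mutants) and genes grouped by their regulators. Adcy1 lies higher in both mutants and Adcy7 lower, control 2 is at 0 for Adcy5, and Adcy8 is at or near 0 in all 4 libraries.

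**Figure D2:**
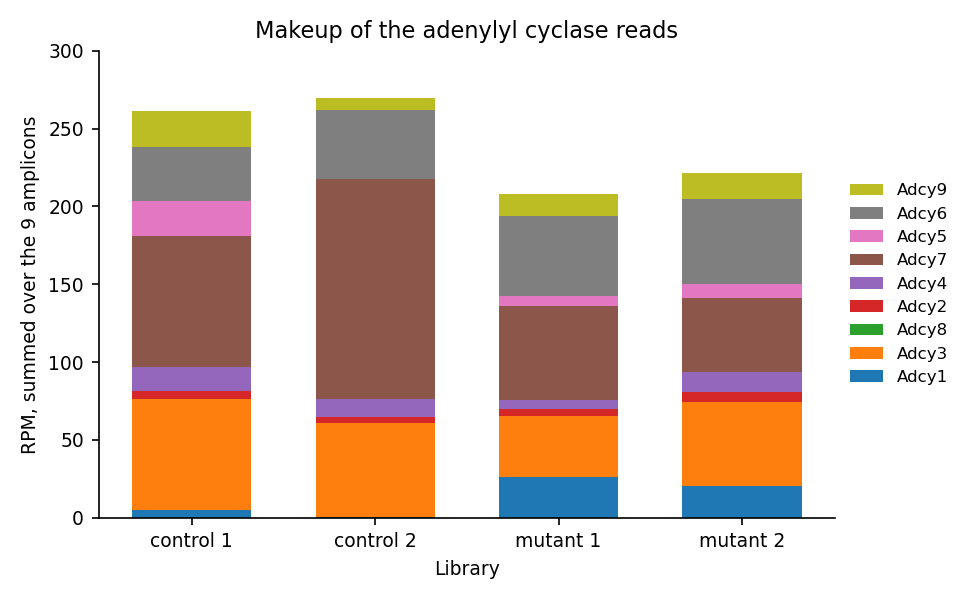
Bars give the RPM summed over the 9 adenylyl cyclase amplicons in each library, from 208 in mutant 1 to 270 in control 2, stacked by gene. The Adcy7 part is widest in control 2 (141 RPM) and the Adcy1 part is widest in the mutants (26.5 and 20.1 RPM).

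The isoform by isoform comparison asks whether loss of Gnas goes with other levels of the enzymes that its product activates. The test was a two-sided limma fit of log2(RPM + 1) values, adjusted by Benjamini and Hochberg over the 11638 tested genes. At an adjusted p below 0.05 it called 0 of the 8 tested cyclases and 2.30% of all tested genes. At an unadjusted p below 0.05 it took in 2 of the 8 (Adcy1 and Adcy7) and 17.9% of all genes. Among count tests on the recovered whole reads, edgeR called 0 of the 8 and 0.799% of genes, and DESeq2 called 1 of the 8 (Adcy1) and 9.37% of genes. The median log2 fold change of the 8 was 0.16, and that of all tested genes was 0.08. Both mutants lay above both controls for Adcy1 and Adcy6, 2 of the 8, against 30.6% of all tested genes. Both lay below for Adcy3 and Adcy7, also 2 of the 8, against 21.1%. These counts among 8 genes are near the background shares.

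**Figure D3:**
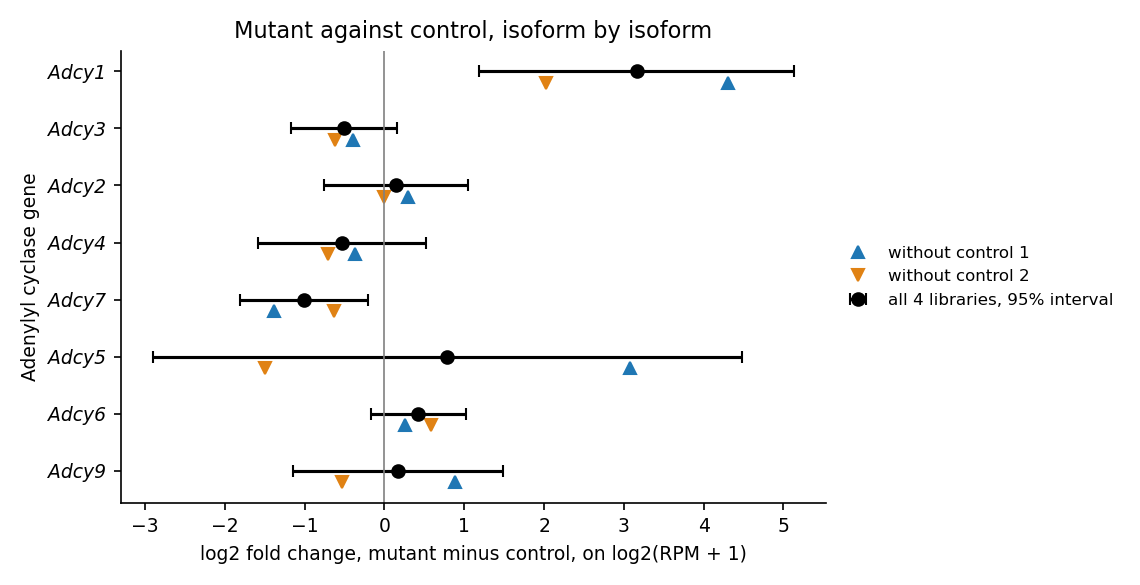
Log2 fold change of mutant minus control on the log2(RPM + 1) scale (x axis) for the 8 tested isoforms (y axis). Black points and bars are the limma estimates and 95% intervals over all 4 libraries, and triangles give the estimate without control 1 or without control 2. Adcy5 lies at 3.07 without control 1 and at -1.50 without control 2.

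Among the isoforms that respond to calcium and calmodulin, Adcy1 had the largest log2 fold change of the family. Adcy1 is best known from neurons, where it ties calcium entry to cyclic AMP. The gene lies on chromosome 11, from 7063489 to 7178506 on the plus strand (GENCODE M21 annotation of GRCm38, as for all positions of genes here). Its amplicon gave 4.93 RPM for control 1, 0.222 for control 2, 26.5 for mutant 1 and 20.1 for mutant 2, from 91, 3, 462 and 299 reads. Both mutants lay above both controls, and the controls lay far apart. Group means were 2.58 ± 3.33 and 23.3 ± 4.47 RPM, a log2 fold change of 3.16 (SE 0.78, 95% interval 1.19 to 5.13, limma adjusted p = 0.13). That scale understates changes of low genes. The mutants' pooled reads were 4.78 times those of control 1 per read sequenced (95% exact counting interval 3.84 to 6.00) and 106 times those of control 2 (36.1 to 514, with 3 reads in control 2). Between the controls alone the ratio was 22.2 (7.35 to 109). The spread between the controls was larger than counting error alone gives.

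The Adcy1 call depended on the test and on the controls used. DESeq2 gave a log2 fold change of 3.14 (adjusted p = 0.0313), and edgeR gave 3.12 with an adjusted p of 0.269. With control 1 left out, limma gave 4.30 (adjusted p = 0.000455), and with control 2 left out it gave 2.02 (adjusted p = 0.00571). In each of those fits the spread comes from the 2 mutants alone, the lone control is assumed to vary like them, and many more genes pass. Without control 1 the calls took in 3 of the 8 cyclases (Adcy1, Adcy5 and Adcy7) and 20.7% of all genes, and without control 2 they took in 2 of the 8 (Adcy1 and Adcy5) and 16.0% of all genes. Adcy1 stood higher in the mutants under each of the 15 alternatives run, with adjusted p from 0.000455 to 0.765.

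Markers of other cell types were set beside Adcy1. The summed level of 9 Schwann cell and neural markers was 35.8 and 46.9 RPM in the controls and 69.8 and 62.5 RPM in the mutants. Most of it came from the tubulin gene Tubb3 (31.3, 35.6, 53.3 and 44.7 RPM in library order), with S100b at 1.08, 2.89, 12.9 and 14.9 RPM and Ngfr at 2.22, 7.71, 1.15 and 1.55 RPM. The defining markers Sox10, Snap25 and Elavl4 were at or below 0.297 RPM in every library. Among 8 pericyte and smooth muscle markers 2 of 5 tested rose, namely the proteoglycan gene Cspg4 (15.1 and 22.0 RPM in the controls, 111 and 157 in the mutants, limma adjusted p = 0.0252) and the receptor gene Notch3 (17.8 and 10.9 RPM against 80.2 and 104, adjusted p = 0.0325). Of all tested genes 2.30% passed in limma, in either direction, and counts from lists this short cannot be set firmly against that share. The pericyte and smooth muscle list summed to 1095 and 3858 RPM in the controls and 3445 and 5425 in the mutants, most of it from Acta2 (1009, 3720, 3103 and 4969 RPM), and Rgs5 and Kcnj8 stayed below 1 RPM. Mcam had 8.45 and 41.8 RPM in the controls and 105 and 135 in the mutants (limma adjusted p = 0.164), and Myh11 had a log2 fold change of 0.08. Abcc9, too low to be tested, had 6.23 and 0.89 RPM in the controls and 0 and 0.067 in the mutants. Stromal markers, those of the labelled cell type, summed to 13837 and 16936 RPM in the controls and 31194 and 34035 in the mutants. Of 10 tested, 1 passed, namely Dpt (19.0 and 58.1 RPM against 666 and 430, limma adjusted p = 0.0389). Dcn had a log2 fold change of -0.71 (limma adjusted p = 0.332). The part of these cell types in the Adcy1 difference was not tested.

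The tested genes whose 4 centred log2(RPM + 1) values lay nearest to those of Adcy1 were Prelp, Smoc2, Nhs, Arhgap20 and Etl4, at distances of 0.24, 0.25, 0.47, 0.51 and 0.57. Prelp, a matrix proteoglycan gene, gave 299.5 and 64.7 RPM for the controls, and 1210 and 940 RPM for the mutants. Smoc2, which encodes a secreted calcium-binding matrix protein, stood at 17.3 and 2.67 RPM against 66.6 and 57.7 RPM. Each has more reads in control 1 than in control 2 and most in the mutants. With 4 libraries such a match is a description.

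Adcy3, known from olfactory neurons and as a marker of the primary cilium, gave 71.6 RPM for control 1, 60.6 for control 2, 38.9 for mutant 1 and 54.4 for mutant 2. Both mutants lay below both controls, by little for mutant 2. Means were 66.1 ± 7.81 and 46.7 ± 10.9 RPM, a log2 fold change of -0.51 (SE 0.26, 95% interval -1.17 to 0.16, limma adjusted p = 0.387), and -0.63 without control 2 (adjusted p = 0.154). Adcy8, which serves calcium signalling in the brain, had 0 reads in both controls and 2 reads in each mutant (0.115 and 0.135 RPM). A count of 0 allows up to 3 reads, which is 0.163 RPM in control 1 and 0.222 RPM in control 2, so no difference was detectable at this depth and no ratio is given. The summed level of these 3 isoforms was 68.7 ± 11.1 RPM in the controls and 70.1 ± 6.48 in the mutants, with Adcy1 adding to it in the mutants where Adcy3 stood lower.

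Among the isoforms enhanced by beta-gamma subunits, Adcy7 had the highest level and the largest difference. Adcy7 is prominent in blood cells, including macrophages, lymphocytes and platelets. The gene lies on chromosome 8, from 88272403 to 88329962 on the plus strand. Its amplicon gave 83.9 RPM for control 1, 141 for control 2, 60.0 for mutant 1 and 48.0 for mutant 2. Both mutants lay below both controls, and the controls differed by a ratio of 1.68 (95% counting interval 1.57 to 1.80). Means were 113 ± 40.6 and 54.0 ± 8.49 RPM, 2.08-fold lower in the mutants, with a log2 fold change of -1.01 (SE 0.32, 95% interval -1.81 to -0.20, limma adjusted p = 0.202).

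Control 2, which had the most Adcy7, also had the most macrophage marker reads. Most of the summed level in control 2 came from Lyz2, the lysozyme gene. It gave 33.9 RPM for control 1, 822 for control 2, 20.8 for mutant 1 and 10.4 for mutant 2. Cd68 stood at 6.12, 57.7, 3.04 and 2.16 RPM and Tyrobp at 1.36, 24.9, 0.115 and 0 RPM in the same order. Of the 15 markers, 14 had a read in control 2, compared with 11 for control 1, 9 for mutant 1 and 7 for mutant 2. The defining markers Adgre1 and Ptprc were at 0 in both mutants, and Adgre1 was at 0 in control 1 too. Some markers of the list stood higher in both mutants than in control 1. Aif1 gave 0 RPM for control 1, 4.15 for control 2, 3.49 for mutant 1 and 3.64 for mutant 2. Csf1r gave 1.08, 14.9, 2.0 and 1.68 RPM in the same order. C1qa had reads in the mutants alone (0.172 and 0.135 RPM). Of the 8 macrophage markers tested in limma, 0 passed. Without control 2 the Adcy7 log2 fold change was -0.63 (adjusted p = 0.107), and without control 1 it was -1.38 (adjusted p = 0.007). Against control 1 alone Adcy7 thus stood lower in both mutants without passing the threshold. DESeq2 gave -1.17 (adjusted p = 0.0538). The part of macrophages in the difference was not tested.

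Adcy4 and Adcy2 did not separate the groups. Adcy4, a broadly expressed isoform, gave 15.2 and 11.9 RPM for the controls, and 6.24 and 12.7 RPM for the mutants. Its mutant libraries differed from each other by a ratio of 2.04 (95% counting interval 1.60 to 2.61), the widest ratio between mutants among the tested cyclases. The log2 fold change was -0.53 (SE 0.42, 95% interval -1.59 to 0.52, limma adjusted p = 0.558), and -0.70 without control 2 (adjusted p = 0.316). Adcy2, known mainly from brain and muscle, was low, with 5.09 and 3.93 RPM for the controls and 4.18 and 6.06 for the mutants. Its log2 fold change was 0.14 (SE 0.36, 95% interval -0.76 to 1.05, limma adjusted p = 0.873), and it turned to -0.11 under quantile scaling and to -0.011 without control 2. The 3 isoforms of this class summed to 104 and 157 RPM in the controls and 70.4 and 66.8 RPM in the mutants, mostly from Adcy7.

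Among the isoforms inhibited by calcium, Adcy5 gave the most uneven data of the family. Adcy5 is abundant in heart and striatum and is closely related to Adcy6. Its amplicon gave 22.7 RPM for control 1, 0 for control 2, 6.24 for mutant 1 and 8.76 for mutant 2, from 419, 0, 109 and 130 reads. The mutants lay between the controls. Set against 3 reads in control 2, it was 102-fold higher in control 1, 28.1-fold higher in mutant 1 and 39.3-fold higher in mutant 2. These ratios leave out the counting error of the higher libraries. Over all 4 libraries the log2 fold change was 0.79 (SE 1.45, 95% interval -2.91 to 4.48, limma adjusted p = 0.818).

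The direction for Adcy5 depended on the control. Without control 2 the mutants stood lower than control 1, with a log2 fold change of -1.50 (adjusted p = 0.0235) and pooled reads 0.326 times those of control 1 (95% counting interval 0.277 to 0.383). Without control 1 the log2 fold change was 3.07 (adjusted p = 0.00289). The mean RPM was lower in the mutants (7.50 ± 1.78 against 11.4 ± 16.1), and edgeR and DESeq2 gave -0.62 each (adjusted p = 0.893 and 0.959), opposite in sign to limma's value.

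The 0 in control 2 had a neighbour. Counting amplicons at 0 in 1 library and at 5 RPM or more in each of the other 3 gave 8 for control 2 and 0 for control 1, mutant 1 and mutant 2. Adcy5 was 1 of the 8. Another was Sec22a, a gene of vesicle transport, which lies 5.39 kb beyond the end of Adcy5 on chromosome 16 and had 215 reads in control 1 and 0 in control 2. Sec22a stood at 11.6 RPM in control 1, 10.8 in mutant 1 and 12.1 in mutant 2, so these 3 libraries were level. Adcy5 lies at 35154877 to 35305738 on the plus strand and Sec22a at 35311131 to 35363918 on the minus strand (positions of the genes and not of the amplicons). The 6 others were Elk3 and Vezt, 628 kb apart on chromosome 10, Mndal on chromosome 1, Trim30d on chromosome 7, Nudt22 on chromosome 19 and Xist on chromosome X. These 7 genes were named after their values were seen.

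Of 7 genes whose lower coordinate lies within 500 kb of that of Adcy5 and reached 1 RPM in some library, Adcy5 and Sec22a were the 2 at 0 in control 2. Hacd2, on the other side of Adcy5, gave 33.7 RPM for control 1 and 28.1 for control 2, and Pdia5, beyond Sec22a, gave 190 and 217 RPM. An amplicon panel reads 1 short target per gene, so a 0 speaks of that target and not of the whole transcript. Whether the Adcy5 transcript was missing in control 2 or only its amplicon failed was not tested.

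**Figure D4:**
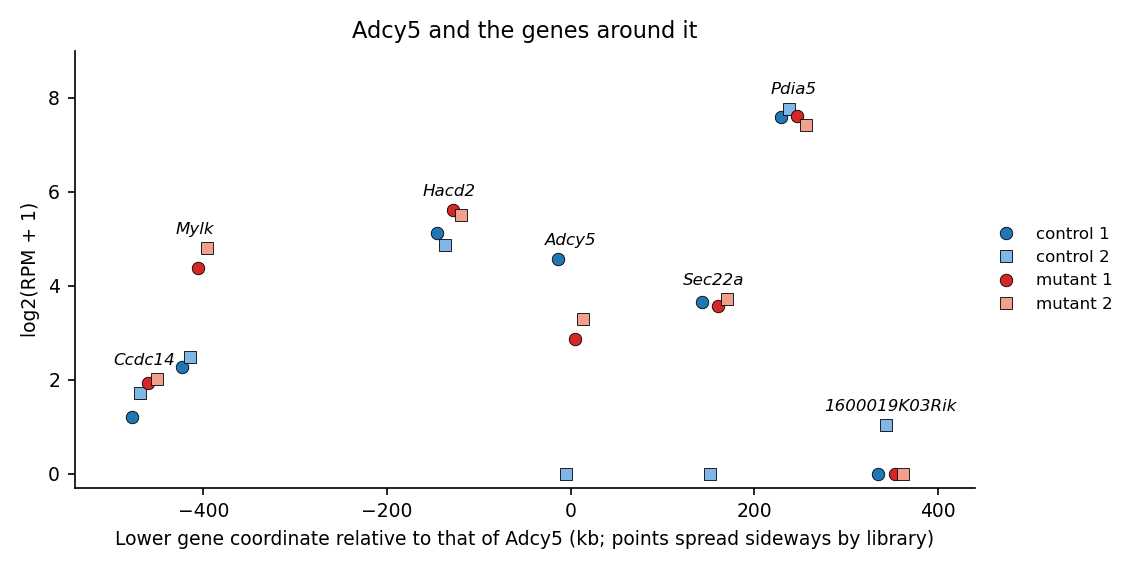
Level as log2(RPM + 1) on the y axis against the distance of each gene's lower coordinate from that of Adcy5 in kb on the x axis, for the 7 genes within 500 kb that reached 1 RPM, with 1 point per library. Control 2 is at 0 for Adcy5 and Sec22a, and is near control 1 for Hacd2 and Pdia5.

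Adcy6, which like Adcy5 is a main cyclase of the heart, gave 34.9 RPM for control 1, 44.1 for control 2, 51.4 for mutant 1 and 54.5 for mutant 2. Both mutants lay above both controls, and the mutants were close to each other. Means were 39.5 ± 6.48 and 53.0 ± 2.16 RPM, a 1.34-fold ratio, with a log2 fold change of 0.42 (SE 0.23, 95% interval -0.17 to 1.02, limma adjusted p = 0.414), and 0.59 without control 2 (adjusted p = 0.112).

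Adcy9 gave 22.8 RPM for control 1, 7.94 for control 2, 14.1 for mutant 1 and 16.8 for mutant 2. The mutants lay between the controls, whose ratio was 2.87 (95% counting interval 2.32 to 3.59). Means were 15.4 ± 10.5 and 15.5 ± 1.90 RPM, with a log2 fold change of 0.17 (SE 0.52, 95% interval -1.15 to 1.49, limma adjusted p = 0.898). As with Adcy5, the sign turned without control 2, to -0.53 (adjusted p = 0.243). Adcy10, the soluble cyclase driven by bicarbonate, is not a membrane isoform. It had 2 reads in mutant 2 and 0 elsewhere.

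The genes around the cyclases in the pathway were taken from 6 lists, and 3 of the lists' 78 tested genes passed in limma. That share is near the 2.30% of all tested genes. In DESeq2 18 of the 78 passed, a larger share than the 9.37% of all tested genes. The lists were chosen with earlier results of these data known, and no test was made of the lists as sets. The 3 genes that passed in limma encode phosphodiesterases, which break down cyclic AMP. Of 14 tested genes of cyclic AMP breakdown and export, 1 rose, 2 fell and 11 did not pass, and the median log2 fold change was -1.19. Pde3b, a phosphodiesterase gene of fat and liver cells, gave 36.4 and 37.3 RPM for the controls, and 3.61 and 2.90 for the mutants (log2 fold change -3.16, adjusted p = 0.0211). Pde3a, its close relative known from heart and vessels, went the other way, from 29.7 and 34.3 RPM to 176 and 142 RPM (2.28, adjusted p = 0.0229). Pde4b, a cyclic AMP-specific phosphodiesterase gene, stood at 17.6 and 35.0 RPM against 3.15 and 1.89 RPM (-2.90, adjusted p = 0.0491), and did not pass under 9 of 15 alternatives, edgeR among them (adjusted p from 2.77e-07 to 0.637). Pde3a and Pde3b did not pass under 2 of 15, those without mutant 1 or mutant 2 (adjusted p from 0.475 to 0.532), and all 3 passed without control 2 (adjusted p from 0.000913 to 0.0068).

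None of the other 5 lists had a member past the threshold in limma. Of the 15 genes named from them here, 8 passed in DESeq2 (Rgs2, Pkia, Prkar1b, Adora2a, Mc5r, Npr2, Gnai1 and Gucy1a3, adjusted p from 0.000398 to 0.0449). The 15 were picked by their small limma p-values in these same libraries. That share therefore cannot be set against the 9.37% of all genes that DESeq2 called. Over all the lists, cyclic AMP breakdown and export included, DESeq2 called 18 genes. In limma without the trend, fitted over all libraries, Adora2a and Mc5r passed (adjusted p = 0.045 and 0.0447). With a control left out many more genes pass, as described for Adcy1, and those fits are not listed for these 15 genes. Of 9 tested G protein subunit genes the nearest were Gnao1 (28.1 and 48.8 RPM in the controls, 98.0 and 89.2 in the mutants, adjusted p = 0.125), Gnai1 (0.542 and 1.85 against 4.64 and 11.3 RPM, adjusted p = 0.163) and Gnai2 (815 and 959 against 1513 and 1585 RPM, adjusted p = 0.202). Gnai1 and Gnai2 encode inhibitory alpha subunits that act on cyclases. Of 20 tested calcium-linked and other regulators, Rgs2, whose product can inhibit several cyclases, stood at 2.76 and 16.0 RPM against 61.2 and 65.7 RPM (log2 fold change 3.01, adjusted p = 0.121). Cap2, named for its yeast relative's binding to cyclase, and Ric8b, a chaperone gene for stimulatory alpha subunits, had adjusted p = 0.177 and 0.206.

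Of 18 tested cyclic AMP effectors the nearest were the kinase inhibitor gene Pkia (13.1 and 8.38 RPM in the controls, 38.5 and 34.1 in the mutants, adjusted p = 0.0733), the regulatory subunit gene Prkar1b (47.5 and 68.3 against 27.1 and 27.7 RPM, adjusted p = 0.146) and the CREB coactivator gene Crtc1 (adjusted p = 0.174). Of 12 tested Gs-coupled receptor genes the nearest were the adenosine receptor gene Adora2a (1.63 and 1.93 against 11.5 and 8.69 RPM, adjusted p = 0.0611), the melanocortin receptor gene Mc5r (adjusted p = 0.0708) and Adora2b (4.66 and 4.60 against 1.78 and 1.35 RPM, adjusted p = 0.18). Among 5 tested other nucleotidyl cyclases, which make cyclic GMP, the natriuretic peptide receptor gene Npr2 gave 167 and 117 RPM for the controls, and 297 and 301 for the mutants (adjusted p = 0.112). Gucy1a3 and Gucy1b3, subunits of the nitric oxide receptor, had adjusted p = 0.149 and 0.293. The lists' medians were 0.14 for G protein subunits, 0.32 for regulators, 0.05 for effectors, 0.36 for receptors and 1.09 for the other cyclases.

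**Figure D5:**
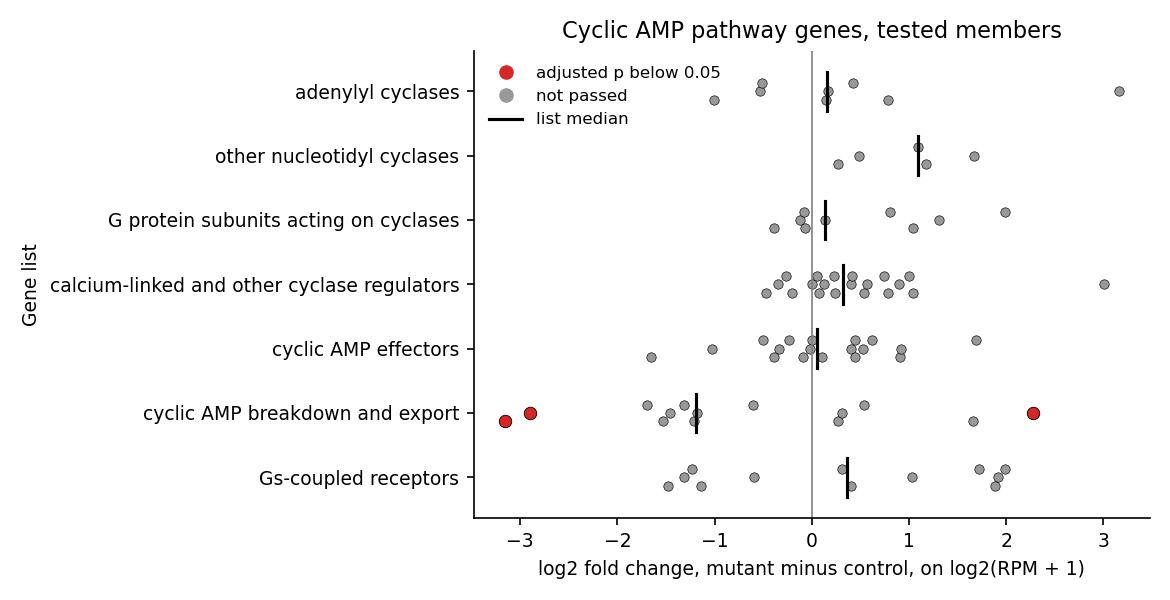
Each point is the log2 fold change (mutant minus control, on log2(RPM + 1), x axis) of 1 tested gene, by list (y axis), with list medians as black bars and genes past an adjusted p of 0.05 in red. The 3 red points are Pde3b, Pde4b and Pde3a, and none of the 8 cyclases is red.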

How the data were processed

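Per the labels' protocols, RNA was copied with SuperScript VILO, and an Ion Chef prepared the libraries with a mouse transcriptome panel (Ion AmpliSeq). The authors deposited RPM values, and all columns have the same sum. Which aligner, counter, build or filter was used is not given in the sources used here. Steps between low values gave whole reads for 100% of values above 0 (within 0.1 read). Intervals and floors (3 reads) cover counting error only, since PCR copies were not told apart by molecular identifiers.

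Symbols were taken from amplicon names. A gene was tested if 2 or more libraries reached 1 RPM, using limma 3.58.1 under R 4.3.3 (trended moderated test, pseudocount 1, two-sided, Benjamini-Hochberg over 11638 genes, threshold 0.05). Alternatives were other pseudocounts, filters and scalings, an untrended fit, the replicate number as a block, leaving out single libraries, and edgeR 4.0.16 and DESeq2 1.42.0 on whole reads. The scripts were tested on simulated reads drawn with the same spread in every library. The controls here were further apart than the mutants, so that run checks the code and not the calls in these data. The rule for named genes was the 9 members, the 3 smallest p-values of each pathway list, the 5 nearest patterns to the member with the largest change, and the 3 highest genes of marker lists that move with a member; other marker genes were named after their values were seen. Marker lists were stromal, macrophage, endothelial, Schwann and neural, pericyte and smooth muscle, skeletal muscle, adipocyte, lymphocyte and keratinocyte. The members and lists were chosen with earlier results of these data known.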

Additional observations from a re-analysis of the deposited data

How the results depend on the processing

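Of 120 values of the 8 tested cyclases under 15 alternatives, 105 kept their direction and their side of the threshold, 6 kept their direction and came to pass it, and 9 changed sign, of which Adcy5 without control 2 also passed. Changed signs were Adcy2 under quantile scaling (-0.11) and between -0.081 and 0.37 with a library left out, Adcy5 in edgeR (-0.624) and DESeq2 (-0.618) and between -1.50 and 3.07 with a library left out, and Adcy9 in edgeR (-0.041), DESeq2 (-0.049) and between -0.53 and 0.88 with a library left out. Adcy1 passed in DESeq2 (3.14) and ranged from 2.02 to 4.30 with a library left out, and Adcy7 ranged from -1.38 to -0.63. With the replicate number as a block, Adcy1 had the same value of 3.16 with an adjusted p of 0.0406, 1 cyclase was called, and the genes called went from 268 to 424. The block also brought Rgs2 past the threshold (adjusted p = 0.0426). The labels do not say that a shared number marks a shared source, and the correlation of the deviations of same-numbered libraries across genes was 0.164.

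The count over all genes was 74 with no filter, 93 in edgeR, 1091 in DESeq2, and 0 to 2411 with a library left out. It was 0 without mutant 1 and 0 without mutant 2, 2411 without control 1 and 1859 without control 2. The number of cyclases called was 1 in DESeq2 and 0 to 3 with a library left out. The pathway lists had 3 called genes in limma, 18 in DESeq2 and 0 to 25 with a library left out. The log2 ratio of the family's summed RPM was -0.31, and -0.38, -0.40 and -0.37 under TMM, median-of-ratios and quantile scaling. The median over all genes moved from 0.08 to -0.03 under quantile scaling. The causes were not tested.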

Other observations

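Markers of further cell types showed the following summed levels in the order control 1, control 2, mutant 1 and mutant 2. The 7 skeletal muscle markers summed to 57.9, 114, 42.8 and 116 RPM, and the 7 adipocyte markers to 9.97, 30.9, 16.2 and 31.9 RPM. The 7 lymphocyte markers summed to at most 0.296 RPM and the 6 keratinocyte markers to at most 1.36 RPM in any library. The 11 stromal markers summed to 13837, 16936, 31194 and 34035 RPM.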
